A study of Mus musculus with 10 samples.

Results

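A set of 10 genes of polyamine metabolism and of the salvage of methylthioadenosine was followed in mouse liver with and without Ndrg3, namely *Mat2a*, *Mat2b*, *Amd1*, *Odc1*, *Srm*, *Sms*, *Sat1*, *Smox*, *Paox* and *Mtap*. They were chosen by name as the core enzymes of this pathway, with earlier results of these data known. They make up 10 of the 24052 gene symbols counted in each liver. The livers were 5 wild-type and 5 Ndrg3 LKO, 1 library each, from mice labelled as C57BL/6 (the floxed line was backcrossed to C57BL/6N by the study's methods), fed ad libitum and aged 8 to 10 weeks by those methods. In Ndrg3 LKO mice, exon 4 of a floxed *Ndrg3* allele was removed by Cre under the albumin promoter, which acts in hepatocytes. Whether other cells of the liver keep the gene was not measured here. By the study's methods the wild-type controls were littermates, and no other agent is named for either group. Of the 10 genes, 9 had at least 1 CPM (a gene's count scaled to a common library total) in all 10 livers and were tested, while *Amd1* had 0 counts in every liver.

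Polyamines are small, positively charged molecules that bind nucleic acids and that growing cells need in larger amounts. Ornithine decarboxylase makes putrescine, and 2 synthases then add aminopropyl groups to give spermidine and spermine, with the groups taken from decarboxylated S-adenosylmethionine. Each addition leaves a molecule of methylthioadenosine, which *Mtap* splits and which a short chain of enzymes turns back into methionine. In adult liver S-adenosylmethionine is made mainly by the enzyme of *Mat1a*, and *Mat2a* and *Mat2b* are the forms known from fetal, growing and transformed liver.

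The promoters of the 3 genes that rose are shown first, because these genes had separate or nearly separate levels in the 2 groups. Each is the 250 bases before the start of the gene, 5′ to 3′ on the gene's strand, from RefSeq on GRCm38.p6, while the counts were made on mm9. Capitals mark matches on either strand to GGGCGG (the GC box) or CCAAT (the CCAAT box), the motifs that these windows held among the 6 searched.
Odc1, chr12:17544623-17544872, plus strand: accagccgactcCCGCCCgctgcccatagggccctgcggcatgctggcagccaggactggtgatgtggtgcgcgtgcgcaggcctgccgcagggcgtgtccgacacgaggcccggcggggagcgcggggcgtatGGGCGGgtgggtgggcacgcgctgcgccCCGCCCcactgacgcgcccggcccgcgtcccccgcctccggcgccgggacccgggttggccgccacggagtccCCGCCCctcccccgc
Smox, chr2:131491612-131491861, plus strand: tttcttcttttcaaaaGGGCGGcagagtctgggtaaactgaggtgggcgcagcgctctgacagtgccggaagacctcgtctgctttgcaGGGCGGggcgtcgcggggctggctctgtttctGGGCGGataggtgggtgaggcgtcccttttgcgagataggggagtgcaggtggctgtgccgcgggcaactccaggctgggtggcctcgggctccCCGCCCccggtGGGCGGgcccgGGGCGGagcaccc
Mtap, chr4:89137120-89137369, plus strand: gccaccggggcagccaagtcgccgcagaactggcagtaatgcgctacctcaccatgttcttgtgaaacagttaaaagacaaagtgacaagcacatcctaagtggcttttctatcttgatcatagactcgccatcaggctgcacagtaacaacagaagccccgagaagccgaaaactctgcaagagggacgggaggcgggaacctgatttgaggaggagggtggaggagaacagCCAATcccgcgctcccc

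The *Odc1* window held 4 GC boxes and the *Smox* window 6, whereas that of *Mtap* held none and 1 CCAAT box. Of the 32817 promoter windows of the same length in the table, 32.7% held a GC box and 33.8% a CCAAT box. The E-box CACGTG was in 6.02% of all windows, the TATA box TATAAA in 12.4%, TGACGT, part of the site bound by CREB, in 6.46%, and TGATGNAA, the element bound by ATF4, in 3.45%, and none of these 4 was in the 3 windows. The table had an entry for 9 of the 10 genes and none for *Srm*. Genes that did not rise also held GC boxes, with 4 in 1 window of *Sms*, 3 in that of *Mat2a* and 1 in that of *Mat2b*. G and C made up 80% of the *Odc1* window, 68% of the *Smox* window and 54.4% of the *Mtap* window. A match describes the letters only.

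The libraries held between 20872262 and 24747870 counts in wild-type and between 23474693 and 30450057 in Ndrg3 LKO livers, so that 3 counts, taken as the smallest signal, correspond to 0.0727 to 0.178 CPM after TMM normalization, which scales libraries on the bulk of their genes. Levels are given below as TMM-normalized CPM. *Ndrg3* itself lay between 15.9 and 21.9 CPM in wild-type and between 7.07 and 9.16 in Ndrg3 LKO livers. Ndrg3 LKO replicate 5 stood apart from the other 4, and on the first principal component, with 68.7% of the variance, it lay at 14.1, against 51.1 to 56.6 in the other Ndrg3 LKO livers and -49.9 to -43.1 in wild-type. For several of the results below, the value without this liver is therefore given as well. The legends of the study's own RNA and metabolite displays give 4 Ndrg3 LKO livers and do not say which was left out. Scaling by library size alone moved the median over all genes tested from 0.03 to 0.56 in log2 fold change, and directions below are relative to the TMM scale.

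Of the 9 genes tested, *Smox*, *Odc1* and *Mtap* rose in Ndrg3 LKO livers, *Mat2b* fell, and 5 did not pass the test (edgeR's quasi-likelihood test, adjusted p under 0.05). The background was high. Among all 11208 genes tested, 48.6% passed the same test, 25.6% as higher and 23% as lower, and 31.5% had groups without overlap, 15.6% with the Ndrg3 LKO livers higher and 15.9% with them lower. Of the 9 genes, *Odc1* and *Smox* had groups without overlap, and the Ndrg3 LKO livers were the higher ones. The share of the 9 genes that passed was thus near that of all genes, and their median log2 fold change was -0.03 beside 0.03 for all genes. With library-size scaling 5 genes were higher and *Mat2b* no longer passed. Without Ndrg3 LKO replicate 5, *Smox*, *Odc1* and *Mtap* were again higher, and *Paox*, *Sms* and *Mat2b* were lower, against 55.6% of all genes passing in either direction in that fit.

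**Figure D1:**
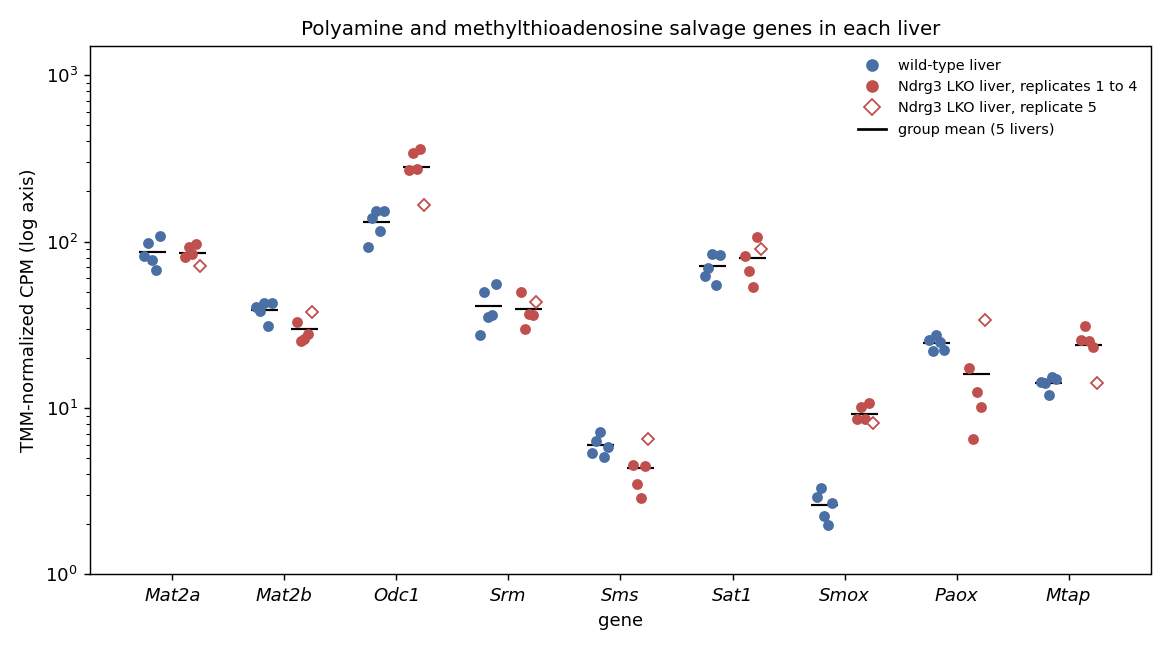
Levels of the 9 genes with counts in each liver, as TMM-normalized CPM on a log axis, with 5 wild-type livers (blue) and 5 Ndrg3 LKO livers (red, replicate 5 as an open diamond) per gene and a bar at the group mean. The groups are apart for *Odc1* and *Smox*, and for *Mtap* replicate 5, at 14.1 CPM, lies among the wild-type livers.

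**Figure D2:**
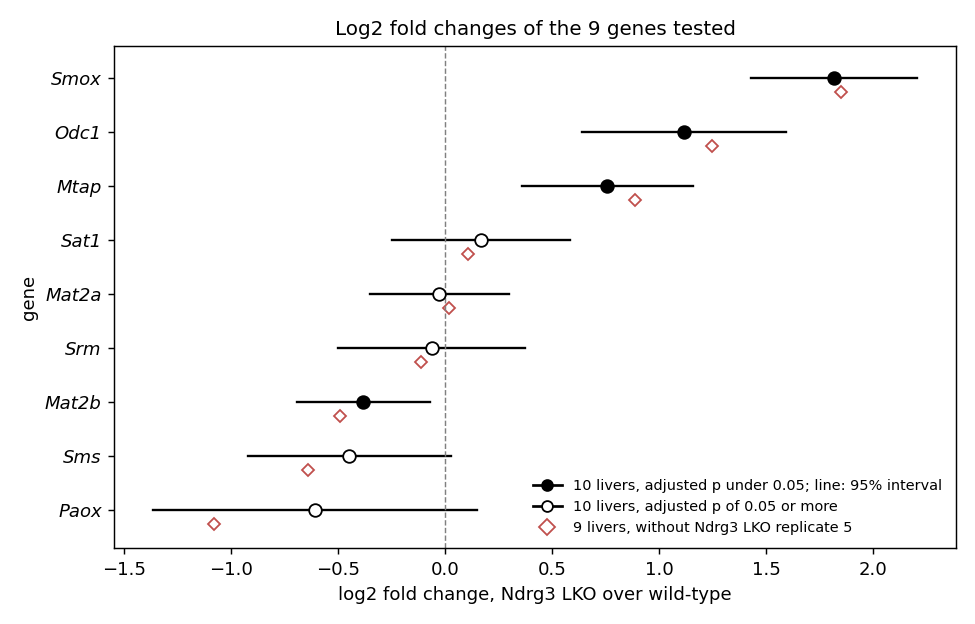
Log2 fold changes, Ndrg3 LKO over wild-type, of the 9 genes tested, with circles for the fit of all 10 livers (filled where the adjusted p was under 0.05), lines for the 95% interval and open diamonds for the fit without Ndrg3 LKO replicate 5. *Smox* has the highest value at 1.82 and *Paox* the lowest at -0.61, and *Paox* moves to -1.08 without replicate 5.

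*Odc1* encodes ornithine decarboxylase, the first and tightly regulated step of polyamine synthesis. It is on chromosome 12 of mm9, plus strand, from 17551679 to 17558308, and contains a small nucleolar RNA gene on the same strand. Wild-type livers had 93.1, 138, 154, 116 and 153 CPM, and Ndrg3 LKO livers 271, 343, 272, 361 and 165. The 5 Ndrg3 LKO livers were all above the highest wild-type liver, with replicate 5 the closest to it. *Odc1* rose 2.16-fold, from 131 ± 25.9 to 283 ± 77.2 CPM (SD, n = 5 each), a log2 fold change of 1.11 (SE 0.22, adjusted p = 0.00164 by edgeR), and 1.24 without replicate 5. The 2-sided exact permutation test gave p = 0.00794, the smallest that 5 livers against 5 allow.

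*Amd1* encodes S-adenosylmethionine decarboxylase, which supplies the aminopropyl groups for both synthases, and is found on chromosome 10 of mm9, minus strand, from 40007265 to 40021992. Its 0 counts in each liver allow up to 0.0727 to 0.178 CPM of reads assigned to it, depending on the library. The transcript of *Amd1* is 3203 bases long, and 99.8% of it aligned at 98% identity or more to other places in mm9, 3 loci in all. Of its 3104 windows of 100 bases, 73.2% occur unaltered in *Amd2*, which also had 0 counts in every liver. The counting of reads that fit several places is not given in the sources used here, and the part of these copies in the zeros was not tested, so *Amd1* could not be compared between groups.

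*Srm*, spermidine synthase, and *Sms*, spermine synthase, add the first and the second aminopropyl group. In mm9 *Srm* is on chromosome 4, plus strand, from 147965612 to 147969102, and *Sms* on chromosome X, minus strand, from 153881787 to 153930219. Wild-type livers had 27.4, 50.0, 35.1, 36.1 and 55.5 CPM of *Srm*, and Ndrg3 LKO livers 49.6, 29.7, 36.6, 36.2 and 43.2, with every Ndrg3 LKO liver inside the wild-type range. Its log2 fold change was -0.06 (95% interval -0.50 to 0.37, adjusted p = 0.811 by edgeR), and this sign changed with upper-quartile, quantile or library-size scaling. *Sms* stood at 5.39, 6.30, 7.13, 5.10 and 5.83 CPM in wild-type and at 4.54, 3.47, 2.88, 4.50 and 6.51 in Ndrg3 LKO livers. Of the 5 Ndrg3 LKO livers, 4 were below all wild-type livers, and replicate 5 was within their range. Its log2 fold change of -0.45 (SE 0.22, 95% interval -0.92 to 0.03, adjusted p = 0.106 by edgeR) did not pass, and it became -0.64 with an adjusted p of 0.0131 without replicate 5 and 0.04 with library-size scaling. Of the *Sms* transcript, 43.5% aligned to 1 other locus on chromosome X, so reads may have been split between them.

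The polyamine-consuming side consists of *Sat1*, which acetylates spermidine and spermine, *Smox*, which oxidizes spermine directly to spermidine and releases hydrogen peroxide, and *Paox*, the peroxisomal oxidase of the acetylated forms. *Smox*, on chromosome 2 of mm9, plus strand, from 131317232 to 131351658, had 2.92, 3.32, 2.23, 1.98 and 2.68 CPM in wild-type livers. In Ndrg3 LKO livers it had 8.62, 10.2, 8.597, 10.7 and 8.11 CPM, without overlap and with replicate 5 near the others. *Smox* rose 3.52-fold, from 2.62 ± 0.537 to 9.24 ± 1.13 CPM (SD, n = 5 each), with a log2 fold change of 1.82 (SE 0.18, adjusted p = 2.18e-05 by edgeR) and p = 0.00794 in the exact permutation test. It rests on 40 to 420 counts per liver, and no other place in the genome matched its transcript.

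*Sat1* is on chromosome X, minus strand, from 151647675 to 151650992, and *Paox* on chromosome 7, plus strand, from 147311556 to 147320233, both in mm9. *Sat1* had 62.2, 69.7, 84.7, 54.5 and 83.3 CPM in wild-type livers and 81.4, 66.9, 53.6, 106 and 89.8 in Ndrg3 LKO livers, with the groups overlapping widely. The log2 fold change was 0.17 (95% interval -0.25 to 0.58, adjusted p = 0.494 by edgeR), and 0.68 with an adjusted p of 0.00638 with library-size scaling. For *Paox* the wild-type livers lay close together, at 25.7, 22.0, 27.3, 24.8 and 22.4 CPM, and the Ndrg3 LKO livers spread over 17.5, 6.47, 12.5, 10.2 and 33.8 CPM. Replicates 1 to 4 were below and replicate 5 above every wild-type liver. The log2 fold change was -0.61 (SE 0.35, 95% interval -1.37 to 0.15, adjusted p = 0.164 by edgeR), and without replicate 5 it was -1.08 with an adjusted p of 0.0021. A further locus on chromosome 1 holds 87.3% of the *Paox* transcript, so its counts are uncertain.

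The 2 oxidases were also compared within each liver, a measure that does not depend on scaling between libraries. Per 1000 counts of *Paox* there were 115, 152, 82.4, 80.5 and 121 of *Smox* in wild-type livers, and 494, 1572, 686, 1053 and 240 in Ndrg3 LKO livers. All 5 Ndrg3 LKO livers were above the wild-type livers, and in replicates 2 and 4 the counts of *Smox* exceeded those of *Paox*. Per kilobase of annotated exons *Paox* remained the higher one in both, at 3.67 against 2.61 CPM in replicate 2 and 5.76 against 2.75 in replicate 4. The annotated exons of *Smox* cover 3894 bases but its longest coding transcript 2299, while both lengths are 1765 for *Paox*. The order of the 2 genes per kilobase may therefore change with the length used. The further locus that holds most of the *Paox* transcript leaves the ratio of *Smox* to *Paox* uncertain too. The mean log2 ratio differed by 2.65, or 6.27-fold (exact permutation p = 0.00794, 0.0318 after Benjamini-Hochberg adjustment over the 4 ratios that could be computed). *Srm* to *Sms* differed by 0.45 on the log2 scale (exact permutation p = 0.111, adjusted 0.127), with 2 of 5 Ndrg3 LKO livers above all wild-type livers. The fifth planned ratio, *Odc1* to its inhibitor *Oaz1*, was not computed because *Oaz1* had no counts in 9 livers and 2 counts in the other, and 96.9% of its transcript aligned to 1 other locus.

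**Figure D3:**
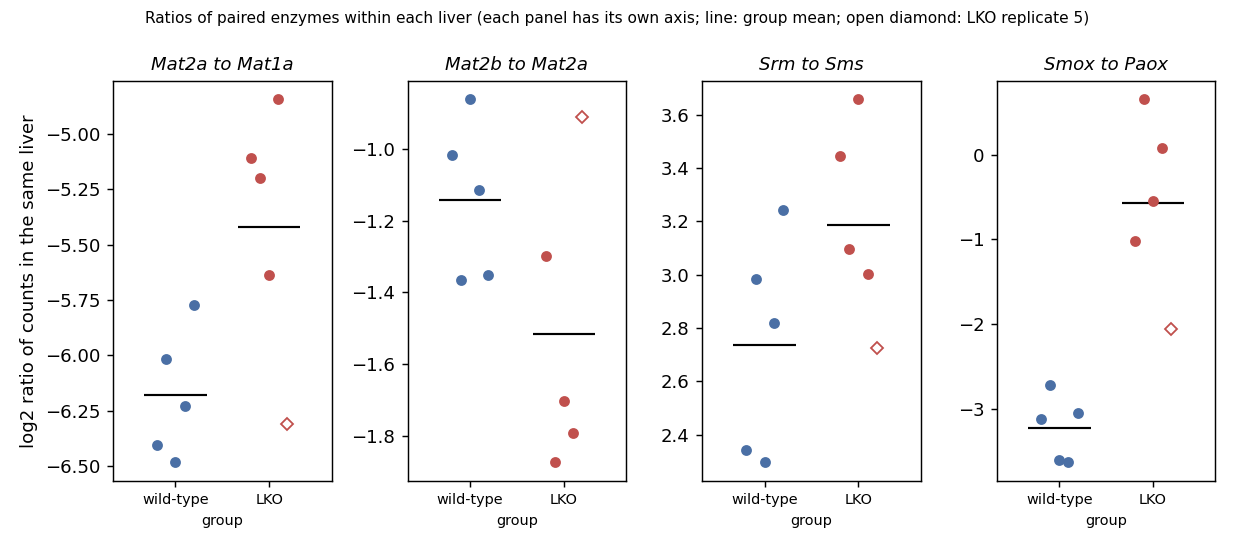
Log2 ratios of the counts of 2 genes in the same liver, for 4 pairs, each panel with its own axis, with wild-type livers in blue, Ndrg3 LKO livers in red (replicate 5 as an open diamond) and lines at the group means. The groups are apart only for *Smox* to *Paox*, and replicate 5 lies within the wild-type range in the other 3 panels.

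S-adenosylmethionine supply was followed through *Mat2a*, the catalytic subunit of methionine adenosyltransferase outside the adult hepatocyte, and *Mat2b*, its regulatory subunit. In mm9 *Mat2a* is on chromosome 6, minus strand, from 72382793 to 72389552, and *Mat2b* on chromosome 11, minus strand, from 40492816 to 40508705, where it contains a small nucleolar RNA gene on the same strand. *Mat2a* had 82.3, 97.97, 77.8, 67.3 and 108 CPM in wild-type and 80.3, 93.1, 84.0, 97.0 and 70.9 in Ndrg3 LKO livers, all within the wild-type range. Its log2 fold change was -0.03 (95% interval -0.35 to 0.30, adjusted p = 0.891 by edgeR), and 0.53 with an adjusted p of 0.0286 with library-size scaling. *Mat2b* had 40.7, 38.0, 42.9, 31.1 and 42.4 CPM in wild-type and 32.6, 25.4, 25.8, 28.0 and 37.8 in Ndrg3 LKO livers, and 3 of the latter were below all wild-type livers. *Mat2b* fell by 0.38 on the log2 scale (SE 0.14, adjusted p = 0.0422 by edgeR, exact permutation p = 0.0318), but the value was 0.12 with library-size scaling. The call was lost in 13 of the 21 alternatives with a test, that scaling included, and the adjusted p ranged from 0.00754 to 0.398, so the fall is at the edge of what these livers can show. It was lost without wild-type replicates 1, 2, 3 or 5 and without Ndrg3 LKO replicates 1, 2, 3 or 4, with log2 fold changes between -0.42 and -0.33 in these fits, and was -0.49 without replicate 5.

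*Mat1a*, the adult liver isozyme, stood at 6972, 6343, 6976, 5052 and 5914 CPM in wild-type and at 2766, 3421, 4178, 2782 and 5630 in Ndrg3 LKO livers (log2 fold change -0.74, adjusted p = 0.0193 by edgeR, and 0.04 after quantile normalization). Its call was lost with library-size scaling, at -0.24 with an adjusted p of 0.251, without Ndrg3 LKO replicate 1, at -0.64 with an adjusted p of 0.0536, and without replicate 4, at -0.64 with an adjusted p of 0.0504. Without replicate 5, which lay inside the wild-type range, the log2 fold change of *Mat1a* was -0.94 with an adjusted p of 0.00095 by edgeR. Per 1000 counts of *Mat1a* there were 11.8, 15.5, 11.2, 13.3 and 18.3 of *Mat2a* in wild-type livers and 29.0, 27.2, 20.1, 34.9 and 12.6 in Ndrg3 LKO livers. *Mat2a* was thus a small part of the 2 isozymes' counts in both groups, and its ratio was above all wild-type livers in 4 of the 5 Ndrg3 LKO livers. The mean log2 ratio differed by 0.76 (exact permutation p = 0.0397), which did not pass after adjustment over the 4 ratios (0.0794), and by 0.99 without replicate 5 (exact permutation p = 0.00794). *Mat2b* to *Mat2a* differed by -0.37 (exact permutation p = 0.127, also 0.127 after adjustment), and by -0.53 with p = 0.0318 in the exact permutation test without replicate 5.

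*Mtap* encodes methylthioadenosine phosphorylase and is on chromosome 4 of mm9, plus strand, from 88783026 to 88826985, where a pseudogene overlaps it on the opposite strand. Wild-type livers had 14.4, 14.2, 12.03, 15.4 and 14.9 CPM, and Ndrg3 LKO livers 25.7, 31.3, 25.3, 23.3 and 14.1. Replicates 1 to 4 were above every wild-type liver, and replicate 5 was within the wild-type range. *Mtap* rose 1.69-fold, from 14.2 ± 1.29 to 23.9 ± 6.22 CPM (SD, n = 5 each), a log2 fold change of 0.76 (SE 0.18, 95% interval 0.36 to 1.16, adjusted p = 0.00543 by edgeR, exact permutation p = 0.0397). Without replicate 5 it was 0.88 with an adjusted p of 0.000125.

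The order of the genes by level was read per kilobase of annotated exons, since longer transcripts collect more reads. By this length *Odc1* was the highest in wild-type livers, at 51.3 ± 10.2 CPM per kilobase (SD, n = 5). It was followed by *Mat2a* at 25.6, *Sat1* at 25.5 and *Srm* at 25.5, whose ranges overlapped, and then by *Paox* at 13.8, *Mat2b* at 7.80 and *Mtap* at 4.39, each apart from its neighbours. *Sms* at 0.99 and *Smox* at 0.67 were the lowest of the genes with counts and overlapped each other. In Ndrg3 LKO livers *Odc1* stood at 111 CPM per kilobase, again apart from the rest, and the ranges of *Sat1*, *Mat2a*, *Srm*, *Paox*, *Mtap* and *Mat2b*, from 28.7 down to 5.98, overlapped from each to the next. *Smox* at 2.37 was now above *Sms* at 0.73 without overlap. The annotated exons cover 2774 bases for *Sat1* and 5001 for *Mat2b*, but their longest coding transcripts are 1162 and 2053 bases. For *Odc1* both lengths are 2547. The order of the genes, *Odc1* as the highest included, and the gaps between neighbours may therefore change with the length used.

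Methionine salvage after *Mtap* runs through *Mri1*, an isomerase, *Apip*, a dehydratase, *Enoph1*, an enolase-phosphatase, *Adi1*, a dioxygenase, and a final transamination. Of the 9 genes listed for these steps 8 were tested, and 2 were higher and 4 lower, with a median log2 fold change of -0.67, beside 25.6% higher and 23% lower and a median of 0.03 over all genes tested. *Mri1* rose from 20.8 ± 2.83 to 36.1 ± 10.95 CPM (log2 fold change 0.80, adjusted p = 0.00601) and *Enoph1* from 4.15 ± 0.413 to 7.17 ± 0.945 CPM (0.79, adjusted p = 0.00142), with all 5 Ndrg3 LKO livers above the wild-type livers for both (SD, n = 5 each, edgeR). *Apip*, the step between them, had 19.1, 18.1, 22.2, 17.1 and 20.3 CPM in wild-type and 8.22, 4.99, 5.17, 8.32 and 14.1 in Ndrg3 LKO livers, without overlap. It fell by 1.25 on the log2 scale (SE 0.26, adjusted p = 0.00201 by edgeR). Consecutive steps thus moved in opposite directions.

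*Adi1* was between 156 and 170 CPM in wild-type and between 95.4 and 150 in Ndrg3 LKO livers, a log2 fold change of -0.41 (adjusted p = 0.0266 by edgeR) that was 0.10 with library-size scaling. The call was lost without Ndrg3 LKO replicate 3, at -0.37, and without replicate 4, at -0.33. *Ccbl2*, the older symbol of the transaminase gene *Kyat3*, fell from 268 ± 75.7 to 74.3 ± 39.5 CPM (SD, n = 5 each), a log2 fold change of -1.85 (adjusted p = 0.00185 by edgeR), with no overlap. The other transaminases are given after their values were seen, to complete the list. *Tat* was lower (-1.78, adjusted p = 0.0145), with replicate 5 at 5016 CPM inside the wild-type range of 4605 to 7199 CPM, and the value was -2.67 (adjusted p = 1.15e-05) without replicate 5. *Ccbl1* had a log2 fold change of -0.94 (adjusted p = 0.0854) and -1.68 (adjusted p = 1.91e-05) without replicate 5, and *Got1* one of 0.43 (adjusted p = 0.124), all by edgeR.

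**Figure D4:**
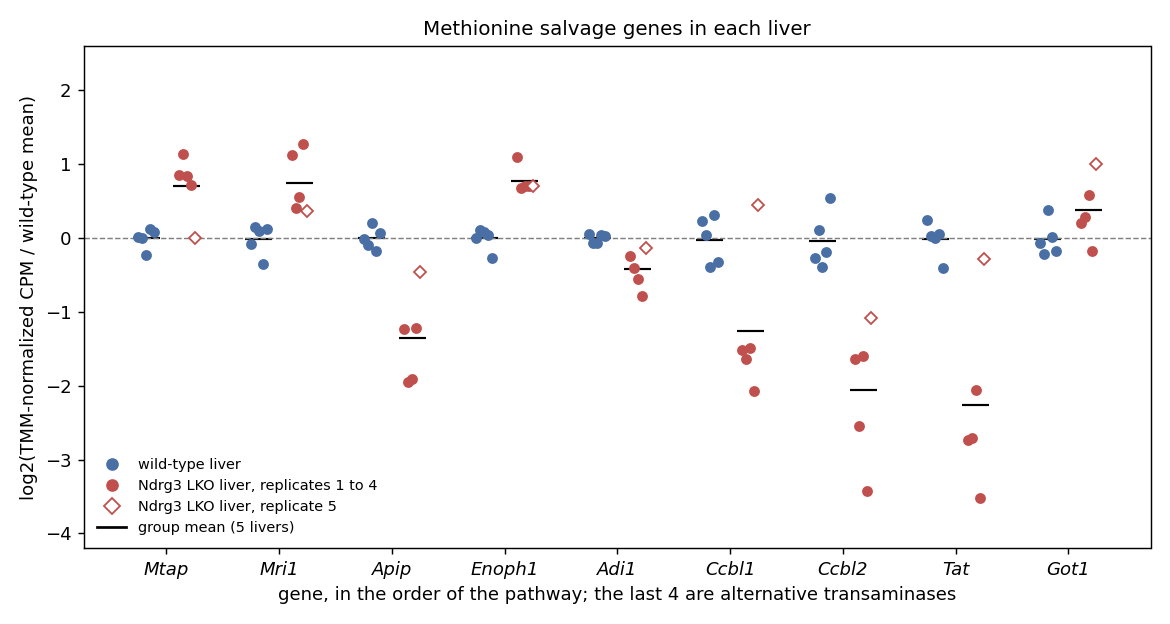
Levels of *Mtap* and the 8 tested genes of methionine salvage after it, in pathway order, as the log2 of TMM-normalized CPM over the wild-type mean, with wild-type livers in blue, Ndrg3 LKO livers in red (replicate 5 as an open diamond) and a bar at the mean of the log2 values. *Mri1* and *Enoph1* lie above and *Apip*, *Adi1* and *Ccbl2* below the wild-type livers in all 5 Ndrg3 LKO livers.

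Over all lists of other pathway genes, 28 of 38 genes were tested, and 7 were higher and 10 lower, with a median log2 fold change of 0.03, beside 25.6% higher and 23% lower of all genes tested. Without replicate 5 the counts were 8 and 12, beside 55.6% of all genes in either direction. With library-size scaling they were 14 and 5, beside 5821 and 1010 of the 11208 genes. For the supply of precursors, 3 of 4 genes were tested and *Agmat*, an agmatinase-family hydrolase named for making putrescine from agmatine, was higher, with 177 to 201 CPM in wild-type and 242 to 282 in Ndrg3 LKO livers (log2 fold change 0.46, adjusted p = 0.00567 by edgeR). Among the antizymes, which bind ornithine decarboxylase and direct it to degradation, and the inhibitors that bind antizymes in turn, 3 of 5 were tested, 1 higher and 2 lower. *Adc*, the older symbol of the antizyme inhibitor *Azin2*, was higher, with 0.238 to 0.919 CPM in wild-type and 1.31 to 2.45 in Ndrg3 LKO livers (1.87, adjusted p = 0.00129 by edgeR), and passed the filter on low counts only through the Ndrg3 LKO livers. *Oaz2* (-0.62, adjusted p = 0.018) and *Azin1* (-0.32, adjusted p = 0.0451) were lower with overlapping groups, by edgeR, and are named after their values were seen. Without Ndrg3 LKO replicate 5, edgeR gave -0.83 (adjusted p = 0.00049) for *Oaz2* and -0.34 (adjusted p = 0.0395) for *Azin1*.

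Hypusine, an amino acid made from spermidine on the translation factor of *Eif5a*, is formed by the enzymes of *Dhps* and *Dohh*. In this list 3 of 4 genes were tested and 2 were higher, beside 25.6% higher of all genes tested. *Dhps*, which transfers the spermidine group, had 13.1, 12.9, 14.03, 13.7 and 13.99 CPM in wild-type and 23.6, 23.8, 20.9, 29.6 and 16.7 in Ndrg3 LKO livers, all of them higher (log2 fold change 0.76, SE 0.15, adjusted p = 0.00148 by edgeR). *Eif5a* was between 407 and 615 CPM in wild-type and between 638 and 836 in Ndrg3 LKO livers (0.45, adjusted p = 0.0352 by edgeR). The *Eif5a* call was lost in 7 of 21 alternatives, among them the fits without wild-type replicates 1, 2 or 4 and without Ndrg3 LKO replicates 1 or 4, with log2 fold changes of 0.36 to 0.47.

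The list for acetylated polyamine and diamine handling had 4 genes and 2 tested, both lower, beside 23% lower of all genes tested. Whether the enzymes of these 2 genes act on polyamines in liver was not measured, so their levels do not describe that handling. *Sat2*, a relative of *Sat1*, was between 9.88 and 11.3 CPM in wild-type and between 4.65 and 6.90 in Ndrg3 LKO livers (-0.82, adjusted p = 0.00082 by edgeR), and with library-size scaling its log2 fold change was -0.31 and did not pass (adjusted p = 0.113). *Nat8*, an acetyltransferase, was between 24.3 and 38.0 CPM in wild-type and between 1.41 and 17.9 in Ndrg3 LKO livers, with replicate 5 the lowest (-1.65, adjusted p = 0.00842 by edgeR), and its call too was lost with library-size scaling (-1.05, adjusted p = 0.0697). Of 12 genes for polyamine transport 9 were tested, 1 higher and 2 lower, beside 25.6% and 23% of all genes tested. *Slc3a2*, the heavy chain of several amino acid transporters, rose 2.02-fold, from 44.7 ± 2.504 to 90.2 ± 14.6 CPM (SD, n = 5 each, adjusted p = 0.000101 by edgeR). *Atp13a2*, a lysosomal polyamine exporter, fell from 14.96 ± 3.31 to 5.72 ± 1.64 CPM (SD, n = 5 each), a log2 fold change of -1.39 (adjusted p = 0.000785 by edgeR), without overlap.

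In whole liver, fewer cells of a type and less RNA per cell cannot be told apart, and the RNA levels of cell type markers differed between the groups as well. The counts of markers below stand beside 25.6% higher and 23% lower of all genes tested. Of the 7 hepatocyte markers tested 5 were lower, and their summed level was 125400 to 165300 CPM in wild-type and 33140 to 142800 in Ndrg3 LKO livers, with replicate 5 the highest at 142800. *Alb*, with a wild-type mean of 94360 CPM, made up most of the wild-type sum. All 8 tested macrophage and monocyte markers of 13 listed were higher (summed level 91.7 to 227 against 208 to 643 CPM), as were 6 of 7 endothelial markers (51.0 to 66.7 against 106 to 147 CPM) and 4 of 7 stellate cell markers (110 to 174 against 237 to 307 CPM). All 5 tested proliferation markers of 6 listed were higher, at 4.55 to 7.68 CPM in sum in wild-type and 10.6 to 93.1 in Ndrg3 LKO livers, with replicate 5 the highest at 93.1, but *Top2a* and *Ccnb1* passed the filter on low counts only through the Ndrg3 LKO livers. Cholangiocyte markers had 1 higher and 1 lower of 5 tested (38.5 to 71.8 against 51.0 to 220 CPM), and 1 erythroid marker was tested and lower (140.8 to 165 against 4.43 to 39.3 CPM for the 4 listed, with both globin genes listed at 0). No neutrophil marker of 5 (0.536 to 1.32 against 1.38 to 12.8 CPM) and no lymphocyte marker of 10 (1.85 to 4.51 against 2.21 to 11.6 CPM) reached the level for testing. The part of these differences in the levels of the polyamine and salvage genes was not tested. Replicate 5 was the Ndrg3 LKO liver with the highest hepatocyte sum. Among the Ndrg3 LKO livers, it had the lowest *Odc1*, *Mtap*, *Smox* and *Mat2a* and the highest *Paox*, *Sms* and *Mat2b*. *Srm* and *Sat1* lay between the others there, and *Smox*, at 8.11 CPM, was still above the wild-type maximum of 3.32 CPM.

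The genes whose pattern over the 10 livers was most like that of *Mtap*, by Pearson's r of log2(CPM + 1) among 11199 genes, were *Lmo7* (0.98), *Nkd1* (0.98) and *Ghdc* (0.98). For *Smox*, the gene of the 10 with the largest fold change, they were *Cbs* (0.99), *Lmna* (0.99) and *Alg8* (0.99). With the group means removed, r was 0.96, 0.96 and 0.96 for the genes near *Mtap* and 0.79, 0.76 and 0.63 for those near *Smox*. All livers share the group difference and the 10 libraries, so these values describe likeness only.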

How the data were processed

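RNA sequencing of 10 livers was used, 5 wild-type and 5 Ndrg3 LKO, grouped by the genotype in the labels, with 1 library each. The deposited values are whole-number counts per gene symbol, made by the authors with STAR on mm9 from stranded mRNA libraries. The file names carry CPM, but totals differ between livers and no value has decimals. The submitters' processing notes name bcl2fastq, Trim Galore 0.6.4, STAR 2.7.3a and Cufflinks 2.2.1. The annotation and the strand setting of the counting are not given in the sources used here, so genes with overlapping or near-identical copies are uncertain. The legend of one display gives an older age for the mice than the methods.

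The 10 genes and the lists of other genes were chosen with earlier results of these data known. All 10 genes are named. Of the other pathway genes, those that passed the test without overlap of the groups are named, with *Oaz1*, *Mat1a* and *Amd2*, and others are said to be named after their values were seen. For *Mtap* and for the gene with the largest fold change, the 3 genes of highest Pearson's r are named.

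Counts were analysed in R 4.3.3 with edgeR 4.0.16 (TMM, quasi-likelihood test, Benjamini-Hochberg adjustment over all 11208 genes that reached 1 CPM in 5 or more livers, or in 4 or more where 1 was left out, threshold 0.05). limma 3.58.1 and DESeq2 1.42.0 served as alternatives. Exact permutation tests were 2-sided over 252 splits, on log2(TMM-normalized CPM + 1), or on log2 ratios of counts with 0.5 added. The edgeR fit with and without the replicate block, limma-voom, limma with trend and DESeq2 were checked on simulated counts. Far fewer genes were changed in the simulation than passed here, and the other alternatives, including those of scaling, were not simulated. Gene positions and transcripts are from GENCODE on NCBIM37 (mm9), and copies were found with blastn 2.17.0 (at least 98% identity over at least 100 bases). The floor of 3 counts allows for counting error alone, because the reads carry no molecular identifiers and PCR copies count as separate reads. The labels do not say which mice shared a litter or a day, so p-values measure the spread between these livers. No liver was a copy of another, since the counts of all 20 same-group pairs differed beyond sampling noise (chi-square per degree of freedom of at least 27.2).

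The alternatives were library-size, median-of-ratios, upper-quartile and quantile scaling, DESeq2, limma-voom, limma with trend, robust dispersion, no filter, a mean CPM of at least 5, the replicate number as a block, other pseudocounts, and each liver left out in turn. Library-size scaling relative to the median of all genes was added after the data were seen. The protein, metabolite and histological measurements of the study were not analysed here. Some results on single genes of the lists are not reported here.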

Additional observations from a re-analysis of the deposited data

Results flagged for a closer look

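In the 5 Ndrg3 LKO livers, *Enoph1*, the enolase-phosphatase of methionine salvage, had its highest level in replicate 1, at 8.85 TMM-normalized CPM, while the nearest of the other 4 was at 6.79 CPM. The gap was 0.944 of the group's whole range, above Dixon's critical value of 0.71 for 5 samples. This was the only one of 56 groups checked to pass, and chance alone would flag about 1 in 20.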

How the results depend on the processing

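*Smox*, *Odc1* and *Mtap* kept their direction in all 22 alternatives and their call in the 21 that gave a test. Library-size scaling, under which the median of all genes lay at 0.56, gave log2 fold changes of 0.45 for *Srm*, 0.036 for *Sms*, 0.53 for *Mat2a*, 0.12 for *Mat2b* and 0.10 for *Adi1*, and in the exact test differences of 0.46 for *Srm*, 0.025 for *Sms*, 0.49 for *Mat2a* and 0.12 for *Mat2b*. Relative to that median they were -0.11 for *Srm*, -0.52 for *Sms*, -0.03 for *Mat2a* and -0.44 for *Mat2b*. That scaling counted 5 of the 10 genes higher and 0 lower, 14 other pathway genes higher and 5 lower, and 5821 of all genes higher and 1010 lower, against 2865 and 2578 with TMM. With upper-quartile scaling *Srm* was 0.005 and *Mat2a* 0.045, with quantile normalization *Srm* was 0.036, *Mat2a* 0.14 and *Mat1a* 0.043, and with a mean CPM of at least 5 *Mat2a* was 0.03. Quantile normalization counted 11 other pathway genes higher. The number of the 10 genes counted as lower, 1 in the fit of all livers, was 0 under upper-quartile scaling, quantile normalization, a mean CPM of at least 5 and the replicate block, and 2 with limma-voom. The causes of these changes were not tested.

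Leaving out each liver in turn, the log2 fold change ranged from -0.20 to 0.055 for *Srm* and from -0.12 to 0.048 for *Mat2a*, the exact test's difference from -0.17 to 0.082 for *Srm* and from -0.10 to 0.068 for *Mat2a*, and the number of the 10 genes lower from 0 to 3 (3 without Ndrg3 LKO replicate 5, 0 without any other Ndrg3 LKO replicate or without wild-type replicates 1, 2, 3 or 5). The ratio of *Mat2a* to *Mat1a* ranged from 0.62 to 0.99 and that of *Mat2b* to *Mat2a* from -0.53 to -0.29.

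The replicate numbers 1 to 5 are shared by the groups, and the labels do not say whether they pair the livers. In deviations from the group means, same-numbered livers correlated at -0.36 to 0.04 and 0 livers correlated best with their own number. With so few livers and Ndrg3 LKO replicate 5 far from the others, these values cannot show whether the numbers mark litters or days. With the replicate number as a block the log2 fold changes were 0.72 for *Mtap*, 1.09 for *Odc1*, 1.83 for *Smox* and -0.39 for *Mat2b* (adjusted p = 0.0658 by edgeR). As same-numbered pairs, the ratio of *Smox* to *Paox* differed by 2.65 (exact sign-flip permutation p = 0.0625, the smallest 5 pairs allow) and that of *Mat2a* to *Mat1a* by 0.76 (p = 0.125 in the same exact test).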
